A study of Mus musculus with 6 samples.

Results

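Oxidative phosphorylation was followed through 101 genes, out of 32287 features counted in single cells of the mouse brain vasculature. They are every gene whose symbol begins with Ndufa, Ndufb, Ndufs, Ndufv, Uqcr, Cox4, Cox5, Cox6, Cox7, Cox8, Atp5 or mt-, and the rule's exclusion of symbols ending in -ps and a digit removed 0 of them. Of the 101 genes, 88 are encoded in the nucleus: 35 subunits of complex I, 8 assembly factors of complex I, 8 subunits of complex III, 20 of complex IV (Ndufa4 and its paralogue Ndufa4l2 among them) and 17 of complex V. The other 13 are encoded in the mitochondrion, 7 for complex I, 1 for complex III, 3 for complex IV and 2 for complex V. The cells came from 3 WT mice of the C57BL/6J strain and 3 mice of the AppArcSwe genotype (ArcSwe), a transgenic amyloid precursor protein model of Alzheimer disease with vascular amyloid. All 6 mice were male, 12 months old and untreated, and 1 hemisphere of the cerebrum of each was digested to vessel fragments, which were caught on beads against CD31, redigested and loaded as 1 droplet library per mouse. The promoter of the transgene is not given in the sources used here.

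The respiratory chain passes electrons from NADH through complexes I, III and IV to oxygen while pumping protons across the inner mitochondrial membrane, and complex V, the ATP synthase, uses the proton gradient to make ATP. Complexes I, III, IV and V are built from subunits of both genomes: the mitochondrial DNA is transcribed inside the organelle as long precursor RNAs that are cut into mRNAs, whereas the nuclear subunits are transcribed singly, made in the cytosol and imported. Several complex IV subunits exist as paralogues that tissues use in place of one another, such as the heart and skeletal muscle forms Cox6a2, Cox7a1 and Cox8b and the hypoxia-linked forms Cox4i2 and Ndufa4l2.

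All 13 mitochondrially encoded members lie on chromosome M (GRCm38, GENCODE M21), and neighbours overlap there. Of the 101 members, 6 overlap another listed gene on the same strand, and 1 of the 6, Ndufa13, which overlaps Yjefn3, is nuclear. On the other strand 32 members overlap another listed gene, and whether the counting used strand is not given in the sources used here. The ends of mt-Atp8 and mt-Nd4l are shown because these genes share bases and transcripts with their neighbours mt-Atp6 and mt-Nd4, so that the division of UMIs within each pair is uncertain, and because the shares of mt- UMIs they took differed between mice. In both, capitals mark the bases that also belong to the start of the next gene, 43 of 120 at chrM:7850-7969 and 7 of 60 at chrM:10114-10173, both on the plus strand.
mt-Atp8 end: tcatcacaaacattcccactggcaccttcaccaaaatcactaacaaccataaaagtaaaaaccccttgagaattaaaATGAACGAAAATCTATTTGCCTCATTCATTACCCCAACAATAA
mt-Nd4l end: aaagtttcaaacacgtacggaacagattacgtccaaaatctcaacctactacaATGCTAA

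Of the 88 nuclear members, 70 were matched to a promoter in a RefSeq table (GRCm38.p6). The palindrome bound by NRF1, a factor known to drive nuclear genes of the respiratory chain, was searched on both strands of the 250 bases before the start. It was present in 12 of the 70 promoters (17.1%) and in 4.23% of 27025 gene promoters of that length. The core CCGGAAG of ETS-family factors was present in 13 of 70 (18.6%) and in 7.83% of all, and the core ACGTG of the hypoxia response in 13 of 70 (18.6%) and in 18.5% of all. These are matches of letters and say nothing of binding. The window of Ndufa8, an accessory subunit of complex I, is shown because its level moved in opposite directions in the arterial and the venous zone. It lies at chr2:36049339-36049588 on the minus strand, and capitals mark its match to the NRF1 palindrome, which reads on the other strand.
Ndufa8 promoter: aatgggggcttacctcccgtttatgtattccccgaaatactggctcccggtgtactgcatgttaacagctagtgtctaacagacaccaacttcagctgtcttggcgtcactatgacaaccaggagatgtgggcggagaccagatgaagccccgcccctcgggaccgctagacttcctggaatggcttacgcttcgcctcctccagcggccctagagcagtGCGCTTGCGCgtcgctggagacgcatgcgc

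The libraries held 26436229 to 59161203 UMIs and 49059 cells, and the limits of 500 to 4500 genes and under 10% mt- UMIs per cell kept 44112. The mt- limit removed 292 cells of WT replicate 3 and 263 of ArcSwe replicate 3, against 12 to 29 in each of the other 4 libraries, and 4 to 42 cell barcodes were shared by each pair of libraries. Cells were clustered without the 101 members and classes were named from markers. Raw UMIs were then summed per mouse and class, over 4372 arterial-, 10672 capillary- and 1017 venous-like endothelial cells, 493 pericyte-, 2164 smooth muscle- and 6446 microglia-like cells. Endothelial-like cells, 24144 in all, are the cells of these endothelial zones and of clusters between zones. Mural-like cells, 3597 in all, are the pericyte- and smooth muscle-like cells and those of clusters between them. These 2 wider classes are therefore not separate from the classes they hold. Pericyte-like cells were few, 29 to 223 per mouse. Microglia-like cells of WT replicate 3 stood apart from those of the other WT mice: 95.2% of them lay in clusters with a median of under 3% ribosomal protein UMIs, called low-ribosomal below, against 27.2% and 33.8% in WT replicates 1 and 2 and 71.9%, 95.5% and 90.3% in ArcSwe replicates 1 to 3. In its quality control the paper removed a microglial cluster low in ribosomal and high in mitochondrial genes. Here the low-ribosomal clusters were kept unless their removal is stated, and whether they hold the same cells was not tested. Summed endothelial markers were at 19950 to 22410 CPM, the UMIs per 1e+06 UMIs of that class in that mouse, in capillary-like cells, pericyte markers 20010 to 27810 in pericyte-like cells and microglial markers 14210 to 19470 in microglia-like cells.

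In the vascular classes the nuclear members took a share of all UMIs that was close in the 6 mice and differed between classes, whereas the share of the mitochondrially encoded members spread widely over the mice of each class. The nuclear share in capillary-like cells was 1.497%, 1.456% and 1.468% in WT replicates 1 to 3 and 1.61%, 1.45% and 1.46% in ArcSwe replicates 1 to 3. The mt- share in the same cells was 1.72%, 1.86% and 2.83% in the WT mice and 2.42%, 2.80% and 3.10% in the ArcSwe mice. WT replicates 1 and 2 were lowest and ArcSwe replicate 1 came next in each of 8 classes, and WT replicate 3, ArcSwe replicate 2 and ArcSwe replicate 3 were highest in an order that changed with the class.

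**Figure D1:**
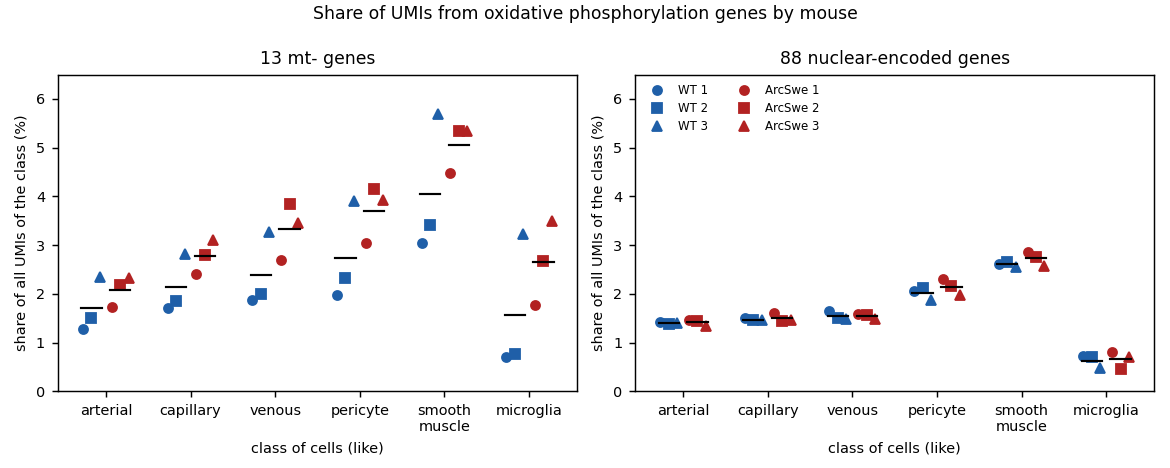
Share of all UMIs of each class (%, vertical axis) taken by the mitochondrially encoded and the nuclear-encoded members, with 1 point per mouse and bars at the genotype means. The mt- share spreads over mice, from 0.703% to 3.50% in microglia-like cells, while the nuclear share is highest in smooth muscle-like cells, at 2.56% to 2.87%.

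Among vascular classes both shares were highest in smooth muscle-like cells. Their mt- share was 3.05%, 3.41% and 5.69% in the WT mice and 4.49%, 5.34% and 5.35% in the ArcSwe mice, and their nuclear share was 2.61%, 2.66%, 2.56%, 2.87%, 2.75% and 2.57% in the same order. Within a mouse the smooth muscle-like mt- share was 1.43 ± 0.0925 times (SD, n = 6 mice) and the nuclear share 1.28 ± 0.0474 times that of pericyte-like cells, higher in 6 of 6 mice for both. Pericyte-like cells in turn had a nuclear share 1.4 ± 0.0813 times and an mt- share 1.30 ± 0.118 times that of capillary-like cells, again higher in 6 of 6. Arterial-like cells had the lowest mt- share of the vascular classes, 0.773 ± 0.0425 times that of capillary-like cells, lower in 6 of 6 mice, with a nuclear share at 0.946 ± 0.029 times. Venous-like cells lay above capillary-like cells in mt- share in 6 of 6 mice (1.16 ± 0.112 times) and in nuclear share in 5 of 6 (1.04 ± 0.0429 times). Microglia-like cells had the lowest nuclear share, 0.433 ± 0.0883 times that of capillary-like cells and lower in 6 of 6 mice, but an mt- share that was lower in 4 and higher in 2. Without the low-ribosomal clusters in both classes, the nuclear share was 0.654 ± 0.166 times and the mt- share 0.60 ± 0.241 times that of capillary-like cells, both lower in 6 of 6 mice.

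The ratio of mt- to nuclear UMIs in microglia-like cells was 0.968, 1.11 and 6.81 in the WT mice and 2.17, 5.84 and 4.94 in the ArcSwe mice. The genotypes overlap, with WT replicate 3 at the top. In the low-ribosomal clusters taken alone, this ratio was 5.12 to 12.8 and the nuclear share 0.215% to 0.412%, where cells held medians of 1020 to 1935 UMIs, against 5236 to 10602 in the remaining microglia-like cells.

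Along the endothelium, the mitochondrially encoded members were lowest in the arterial zone and highest in the venous zone. Counts were compared with the edgeR quasi-likelihood test with the mouse as a block and Benjamini-Hochberg adjustment over all genes, here and for the other classes. Between arterial- and capillary-like cells, 50 of the 95 members tested had an adjusted p under 0.05, 10 higher and 40 lower in arterial-like cells, against 52.5% of all 13108 genes called, 26.1% higher and 26.4% lower. All 13 mt- genes fell, with a median log2 fold change of -0.36 against a median of -0.03 over all genes. Of 35 nuclear complex I subunits 16 fell and 0 rose, whereas complex V subunits were divided, 5 higher and 5 lower of 17, and complex IV subunits likewise, 3 higher and 2 lower of 14.

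mt-Nd2, a core subunit of the proton-pumping arm of complex I, was at 606, 727 and 1356 CPM in arterial-like cells of the WT mice and 831, 1230 and 1359 CPM in those of the ArcSwe mice. In capillary-like cells it was at 978, 1125, 2048, 1417, 1915 and 2117 CPM in the same order. The zones overlap across mice but the arterial value is the lower in each mouse, with a log2 fold change of -0.62 (SE 0.0321, adjusted p = 2.95e-14, edgeR). mt-Nd4l, a small membrane subunit of complex I, had a log2 fold change of -0.55 (SE 0.0396, adjusted p = 1.77e-11, edgeR), and mt-Co1, the catalytic subunit of complex IV, the smallest among the mt- genes at -0.14 (SE 0.0305, adjusted p = 0.000361, edgeR).

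Ndufa8 differed at both steps along the vessel. It was at 114, 95.6, 96.2, 102, 94.5 and 116 CPM in arterial-like cells of WT replicates 1 to 3 and ArcSwe replicates 1 to 3. In capillary-like cells it was at 179, 134, 171, 169, 138 and 185 CPM, and in venous-like cells at 421, 330, 336, 374, 308 and 356 CPM. The 3 zones do not overlap. The log2 fold change was -0.62 (SE 0.0452, adjusted p = 2.00e-11, edgeR) from capillary- to arterial-like and 1.23 (SE 0.0638, adjusted p = 2.39e-18, edgeR) from capillary- to venous-like cells. Ndufa3, another accessory subunit of complex I, followed it on the arterial side with a log2 fold change of -0.51 (SE 0.0485). Cox4i2 went the other way, with a log2 fold change of 0.96 (SE 0.191, adjusted p = 0.000173, edgeR) at 6.01 to 12.4 CPM in arterial-like and 2.16 to 7.45 CPM in capillary-like cells.

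Between venous- and capillary-like cells, 45 of 96 members were called higher and 2 lower, against 35.5% of 11700 genes called, 18.6% higher and 16.8% lower. The risers included 11 of the 13 mt- genes, 11 of 17 complex V subunits, 5 of 8 complex III subunits and 9 of 35 nuclear complex I subunits. The mt- median was 0.30 against -0.02 over all genes. This split depended on the scaling: with library sizes alone, which moved the median of all genes to -0.13, 20 members were higher and 9 lower. Among the higher were 8 mt- genes, and the nuclear median moved from 0.11 to -0.01. How many of all genes were called with library sizes alone is not given here, so these counts are not set against a share. mt-Co1 led the mt- genes at 0.49 (SE 0.0564, adjusted p = 3.47e-09, edgeR), with 3113, 3441, 4991, 4547, 6025 and 4715 CPM in venous-like cells and 2522, 2831, 3682, 3689, 3847 and 3890 CPM in capillary-like cells of the 6 mice. The venous value is the higher in each mouse.

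The 2 members that fell were Ndufaf7, a methyltransferase that modifies a complex I subunit during assembly, and Ndufa7, an accessory subunit of complex I. Ndufaf7 was at 21.1 to 35.4 CPM in venous-like and 61.2 to 71.7 CPM in capillary-like cells, without overlap. Ndufa7 was at 263 to 342 CPM in venous-like and 434 to 527 CPM in capillary-like cells, also without overlap, with a log2 fold change of -0.57 (SE 0.0622). The fifth gene of the naming rule, Cox7a1, the heart and muscle form of a complex IV subunit, was higher in venous-like cells by 0.82 (SE 0.277, adjusted p = 0.0191, edgeR), on values of 4.56 to 14.01 CPM against 3.70 to 7.67 CPM. That call was lost without ArcSwe replicate 1 (adjusted p = 0.136, edgeR), with WT mice only (0.352) and with cells under 5% mt- counts (0.0694).

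**Figure D2:**
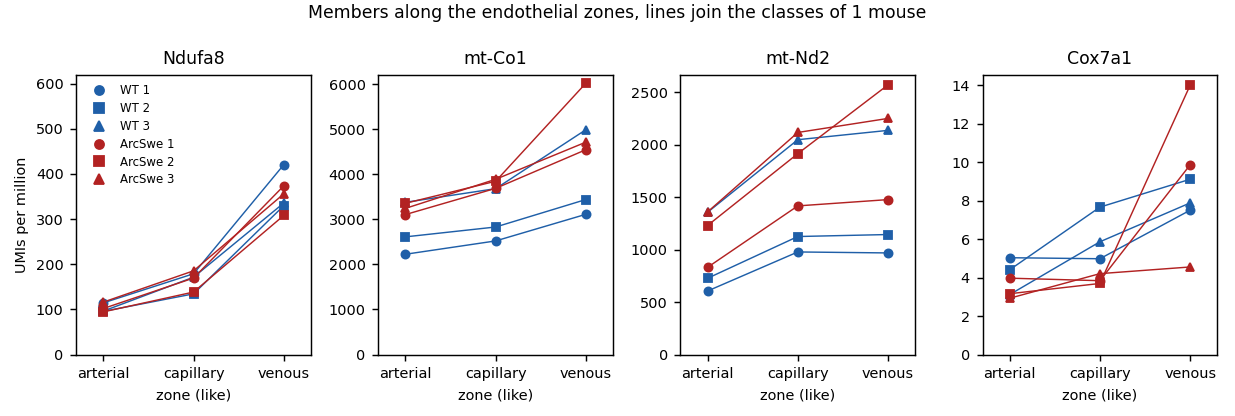
CPM (vertical axes, from 0) of Ndufa8, mt-Co1, mt-Nd2 and Cox7a1 along the arterial-, capillary- and venous-like zones, with lines joining the classes of 1 mouse. Ndufa8 climbs from 94.5 to 116 in the arterial to 308 to 421 in the venous zone in every mouse, and mt-Co1 and mt-Nd2 are lowest in the arterial zone of every mouse.

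Pericyte-like cells differed from capillary-like endothelium most in which paralogues of complex IV they carried. Of 97 members tested between pericyte- and capillary-like cells, 41 were higher and 13 lower, against 46% of 12663 genes called, 20.7% higher and 25.3% lower. With library sizes alone, which moved the median of all genes from -0.07 to 0.07, 54 were higher and 9 lower. The share of all genes called with that scaling is not given here. Risers included 16 of 35 complex I, 9 of 17 complex V and 3 of 8 complex III subunits and 6 of 13 mt- genes, led among the mt- genes by mt-Cytb, the one mitochondrially encoded subunit of complex III (log2 fold change 0.54, SE 0.0879, adjusted p = 4.13e-08, edgeR). Cox7a1 was also called higher (1.34, SE 0.466, adjusted p = 0.012, edgeR), but with that sign in only 3 of 6 mice.

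Among the 5 largest called changes were those of complex IV forms. Ndufa4l2, a paralogue of the complex IV subunit Ndufa4 that is induced by hypoxia in other cells, was at 1654, 1304 and 1162 CPM in pericyte-like cells of the WT mice and 1124, 1295 and 1432 CPM in those of the ArcSwe mice. In capillary-like cells it was at 0.341 to 3.99 CPM, and the log2 fold change was 9.59 (SE 0.164, adjusted p = 1.31e-92, edgeR). Ndufa4 itself was at 74.7, 129, 63.1, 166, 126 and 116 CPM in pericyte-like cells against 458 to 531 CPM in capillary-like cells (log2 fold change -2.35, SE 0.133, adjusted p = 4.47e-35, edgeR). No mouse overlaps between the classes for either gene.

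Cox4i2, the oxygen-responsive form of the largest nuclear complex IV subunit, was at 747, 896, 707, 549, 562 and 763 CPM in pericyte-like cells (log2 fold change 7.20, SE 0.137, adjusted p = 4.03e-87, edgeR), while the common form Cox4i1 was at 378 to 680 CPM there and 391 to 540 CPM in capillary-like cells (log2 fold change 0.06, SE 0.101, adjusted p = 0.664, edgeR). Cox8a, a small nuclear subunit of complex IV, was at 1069 to 1565 CPM against 394 to 459 CPM (log2 fold change 1.37, SE 0.0943, adjusted p = 8.84e-28, edgeR). Cox6b2, known as the testis form of Cox6b, was higher by 4.88 (SE 0.614, adjusted p = 5.11e-12, edgeR) on 27 UMIs in pericyte-like cells.

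As a share of the pair, which compares 1 gene with its partner across classes and not levels of protein, Ndufa4l2 made up 87.2% to 95.7% of Ndufa4l2 and Ndufa4 UMIs in pericyte-like cells, 14.7% to 26.0% in smooth muscle-like cells and at most 1.04% in the 3 endothelial zones. Cox4i2 made up 50.0% to 70.3% of Cox4i2 and Cox4i1 UMIs in pericyte-like, 11.8% to 16.7% in smooth muscle-like, 1.32% to 3.12% in arterial-like and 0.449% to 1.36% in capillary-like cells. Neither share overlaps between pericyte-like, smooth muscle-like and capillary-like cells. The remaining restricted forms were scarce: Cox8b was at or under 5.18 CPM and Cox7b2 and Cox8c under 0.5 CPM in all of the 8 classes. Cox6a2 was at or under 3.32 CPM outside microglia.

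**Figure D3:**
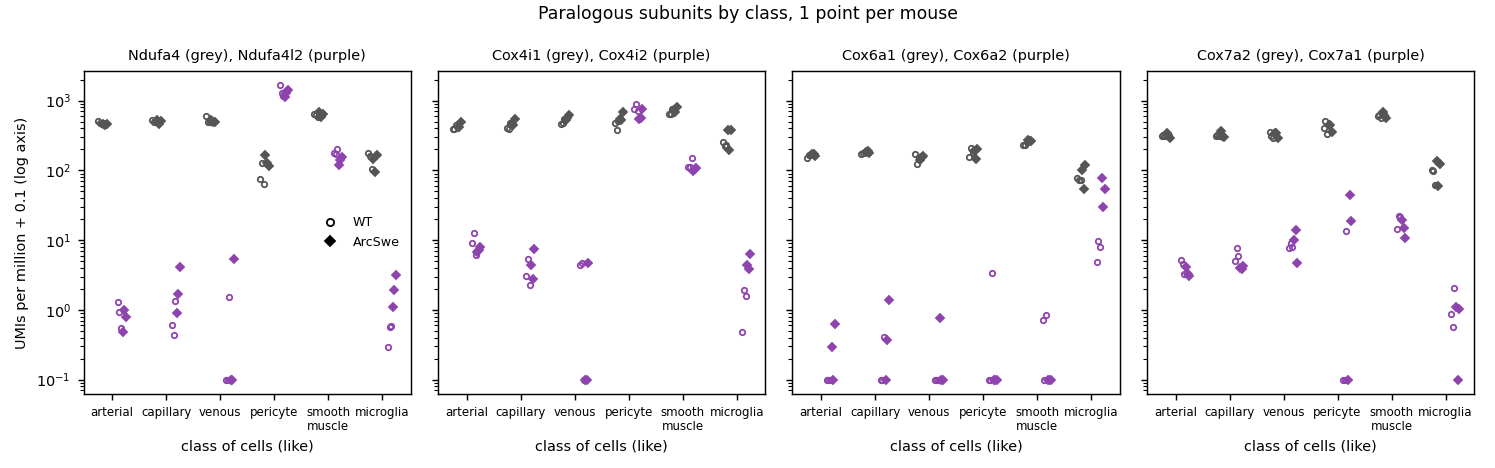
CPM plus 0.1 (log axis) of paralogous complex IV subunits in each class, with the common form in grey, the restricted form in purple and 1 point per mouse, open for WT and filled for ArcSwe. In pericyte-like cells Ndufa4l2 stands at 1124 to 1654 above Ndufa4 at 63.1 to 166, and in smooth muscle-like cells the order is turned, with Ndufa4 at 578 to 682 and Ndufa4l2 at 117 to 205.

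Smooth muscle-like cells carried more of nearly the whole chain than pericyte-like cells. Of 96 members 82 were higher and 4 lower, against 42% of 9321 genes called, 21.8% higher and 20.3% lower, and the members' median log2 fold change was 0.75 against -0.03 over all genes. Risers were 17 of 17 complex V subunits, 32 of 35 complex I subunits, 7 of 8 complex III subunits and 12 of 13 mt- genes. With library sizes alone, which moved the median of all genes to -0.34, 64 members were higher and 5 lower, with a median of 0.43. The share of all genes called with that scaling is not given here. Ndufa4 rose most, by 2.85 (SE 0.135, adjusted p = 1.07e-19, edgeR), from the pericyte-like values above to 578 to 682 CPM.

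mt-Nd5, a core proton-pumping subunit of complex I, was at 855, 993, 647, 1155, 1810 and 1199 CPM in smooth muscle-like and 247, 388, 395, 425, 587 and 360 CPM in pericyte-like cells (log2 fold change 1.75, SE 0.12, adjusted p = 4.84e-15, edgeR). The 2 classes do not overlap. Ndufa4l2 fell by 2.72 (SE 0.103, adjusted p = 1.28e-22, edgeR), Cox4i2 fell by 2.3 (SE 0.105, adjusted p = 3.10e-20, edgeR) and Cox6b2 fell by 2.29 (SE 0.495, adjusted p = 0.000217, edgeR) on the log2 scale. The Cox6b2 call rested on 27 UMIs in pericyte-like cells, 15 of them in ArcSwe replicate 3. It was lost with WT mice only (adjusted p = 0.0527, edgeR). The fourth member that fell was Ndufaf7, by 0.70 (SE 0.243, adjusted p = 0.018, edgeR). Pericyte markers were present at a fraction of their pericyte-like level in smooth muscle-like cells, from 0.0395% for Abcc9 and 0.0887% for Kcnj8 to 18.3% for Pdgfrb, where Ndufa4l2 stood at 12.4% and Cox4i2 at 16.6%. Smooth muscle markers summed to 5278 to 9429 CPM in pericyte-like and 34650 to 41430 CPM in smooth muscle-like cells. Their part in these differences was not tested.

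In microglia-like cells most nuclear members and 2 mt- genes fell against capillary-like cells, counts that changed without the low-ribosomal clusters. Of 97 members 79 were lower and 1 higher than in capillary-like cells, against 75.6% of 13904 genes called, 36.2% higher and 39.4% lower. The fallers were 33 of 35 complex I, 16 of 17 complex V, 8 of 8 complex III and 13 of 16 complex IV subunits and 7 of 8 assembly factors, but 2 of 13 mt- genes, mt-Atp8 (-0.84, SE 0.19, adjusted p = 0.00179) and mt-Co1 (-0.61, SE 0.23, adjusted p = 0.0301, edgeR). The medians were -1.11 for nuclear and -0.22 for mt- members. Without the low-ribosomal clusters in both classes, 58 members fell and 2 rose, where 68% of 13618 genes were called, 33.5% higher and 34.5% lower. The fallers were then 50 nuclear members and 8 of 13 mt- genes, and the medians -0.51 for nuclear and -0.60 for mt- members. With all clusters, Ndufa7 was at 72.4 to 115 CPM (log2 fold change -2.28, SE 0.158), Atp5j, a stalk subunit of complex V, at 42.5 to 138 CPM (-2.23, SE 0.217) and Ndufs5, an accessory subunit of complex I, at 31.4 to 63.5 CPM (-1.80, SE 0.151). Cox7a1 was lower by 2.42 on the log2 scale (-2.42, SE 0.363), at 0 to 1.98 CPM. The 1 riser was Cox6a2.

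Other genes of mitochondrial respiration were read from lists. Of all genes 20.7% were higher and 25.3% lower in pericyte-like, 21.8% and 20.3% in smooth muscle-like, 36.2% and 39.4% in microglia-like, 26.1% and 26.4% in arterial-like and 18.6% and 16.8% in venous-like cells, each against the class named above. Of 13 enzymes of the tricarboxylic acid cycle, which feeds electrons to the chain, 9 rose and 1 fell in pericyte-like cells, 10 rose and 0 fell in smooth muscle-like cells, and 2 rose and 9 fell in microglia-like cells. In arterial-like cells 1 rose and 1 fell, and in venous-like cells 2 rose and 0 fell. Complex II, whose 4 subunits are all nuclear, had 3 risers in pericyte-like cells, 2 in smooth muscle-like cells, 2 in venous-like cells and 0 in arterial-like cells, and 3 that fell in microglia-like cells. Of the mitochondrial ribosomal proteins, which take part in translating the mt- mRNAs, 9 of 78 rose and 12 fell in arterial-like, 8 rose and 1 fell in venous-like and 4 rose and 7 fell in pericyte-like cells, whereas 27 of 76 rose in smooth muscle-like cells and 60 of 78 fell in microglia-like cells. The arterial-, venous- and pericyte-like shares of these proteins lay below those of all genes in both directions.

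Between the genotypes, edgeR called 0 of the 96 members tested in endothelial-like cells at an adjusted p under 0.05 (0% of 14312 genes were called), and 1 had an unadjusted p under 0.05, as had 4.37% of all genes. The count of members called was also 0 in arterial-, capillary- and venous-like endothelial, mural-, pericyte- and smooth muscle-like cells (0% of all genes called in each), with 2, 6, 5, 3, 4 and 6 members at an unadjusted p under 0.05, where 4.02%, 4.58%, 3.75%, 3.78%, 5.16% and 3.85% of all genes were. DESeq2 called 0 members in these classes too. On simulated counts, the endothelial-like fit recovered 58.5% and the mural-like fit 72% of genes changed by 1 on the log2 scale. The nuclear members had median log2 fold changes between 0.02 and 0.13 on the log2 scale over these 7 classes, and the mt- members medians between 0.26 and 0.47, against medians of all genes between -0.01 and 0. With library sizes alone the nuclear medians were -0.01 to 0.11, the one below 0 in venous-like cells, and the mt- medians 0.23 to 0.44.

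The values of the mt- share overlapped between the genotypes in each class. Its difference, ArcSwe minus WT, was 0.575 percentage points in endothelial-like cells (2.02% ± 0.624 against 2.59% ± 0.343, SD, n = 3, exact two-sided permutation test, p = 0.3), 1.01 in smooth muscle-like cells (p = 0.4, exact permutation), 0.977 in pericyte-like cells (p = 0.2, exact permutation) and 1.08 in microglia-like cells (p = 0.3, exact permutation). These differences moved with single mice. Without WT replicate 1 they were 0.358, 0.515, 0.595 and 0.642 percentage points in the same order of classes, and without WT replicate 3 they were 0.932, 1.83, 1.57 and 1.91. In microglia-like cells the difference was 0.679 without WT replicate 2 and 0.65 without ArcSwe replicate 3. With 3 mice against 3 the smallest p possible is 0.1, and the 16 share tests over 8 classes gave adjusted values of 0.64 to 0.9. The nuclear share differed by 0.0241 percentage points in endothelial-like cells (exact permutation, p = 0.9).

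The count of mt- genes called depended on 1 library. Without WT replicate 3, 8 of the mt- genes were called higher in smooth muscle-like cells of the ArcSwe mice, where 0.173% of 9841 genes were called, among them mt-Co3 (log2 fold change 1.01, SE 0.136, adjusted p = 0.00105, edgeR), mt-Nd3 (0.98, SE 0.12) and mt-Nd2 (0.94, SE 0.128). mt-Co3 (1.36, SE 0.239, adjusted p = 0.0389, edgeR) was called in pericyte-like cells, where the share of all genes called is not given here. Since the mt- share of WT replicate 3 lay with those of ArcSwe replicates 2 and 3, these calls rest on the comparison of 2 WT mice with 3 ArcSwe mice.

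**Figure D4:**
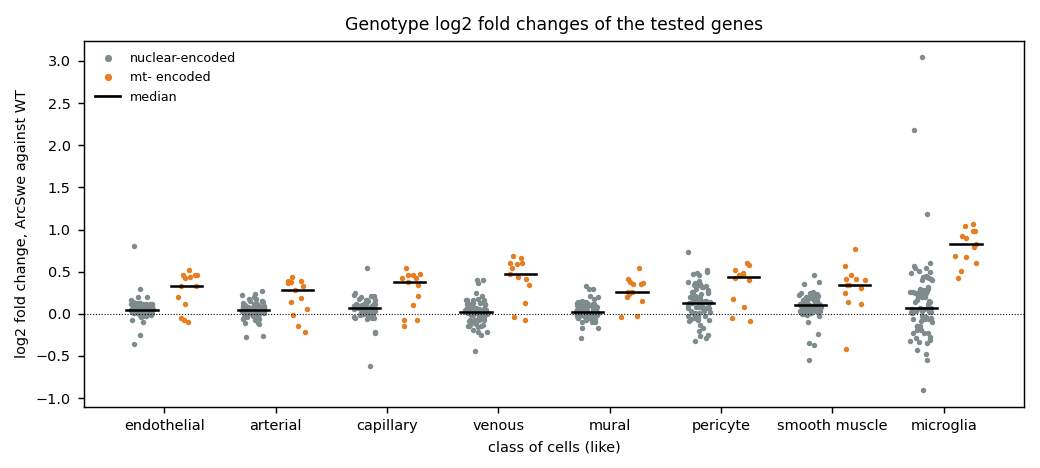
Log2 fold changes of ArcSwe against WT (vertical axis) of each member in each class of cells, with nuclear-encoded and mitochondrially encoded members in 2 colours and bars at the medians. Nuclear members gather near 0, with medians of 0.02 to 0.13 in the vascular classes, the mt- members lie above them, and Cox6a2 stands at 3.04 in microglia-like cells.

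Of single members, Ndufa12, an accessory subunit of complex I, was nearest to a call in the endothelium. In endothelial-like cells it was at 69.6, 69.7 and 88.5 CPM in the WT mice and 91.7, 85.9 and 94.7 CPM in the ArcSwe mice, so that WT replicate 3 lay among the ArcSwe values. The log2 fold change was 0.29 (SE 0.0967, adjusted p = 0.987, edgeR). In smooth muscle-like cells it was at 145, 137 and 170 CPM against 202, 215 and 191 CPM, without overlap, with a log2 fold change of 0.46 (SE 0.128, adjusted p = 1, edgeR). Its log2 fold change was above 0 in all 8 class fits, 0.25 to 0.54, in libraries and partly in cells that the classes share.

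mt-Co1 and mt-Nd5 had the smallest p-values of the mt- genes in mural cells. mt-Co1 was at 5058, 5624 and 5860 CPM in smooth muscle-like cells of the WT mice and 7204, 8985 and 7604 CPM in those of the ArcSwe mice (log2 fold change 0.57, SE 0.156, adjusted p = 1, edgeR). mt-Nd5 was at 855, 993 and 647 CPM against 1155, 1810 and 1199 CPM (0.77, SE 0.217). Neither overlaps between the genotypes, and WT replicate 3, high in the mt- share, was lowest of all mice in mt-Nd5.

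In smooth muscle-like cells 8 members were higher in every ArcSwe mouse than in every WT mouse and 3 lower, of 96, where 10.6% of all genes were apart and 3.31% apart and higher. The 3 lower ones were Ndufa4l2 at 176, 172 and 205 against 117, 140 and 157 CPM (-0.38, SE 0.139), Cox4i2 at 110, 112 and 151 against 97.9, 104 and 108 CPM (-0.24, SE 0.14) and Ndufaf7 at 28.3, 24.8 and 24.2 against 14.9, 17.5 and 18.4 CPM (-0.55, SE 0.209). Pericyte markers in the same smooth muscle-like cells summed to 1273 to 1911 CPM in the WT and 1180 to 1417 CPM in the ArcSwe mice, and their part in the first pair was not tested.

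In pericyte-like cells Ndufb9, an accessory complex I subunit, was at 264, 259 and 279 against 399, 392 and 342 CPM (0.49, SE 0.188, adjusted p = 0.894, edgeR) and Atp5c1, the central stalk subunit of complex V, at 270, 209 and 279 against 358, 354 and 344 CPM (0.46, SE 0.192, adjusted p = 0.934, edgeR). Both were apart between the genotypes, as were 7 of 87 members, all higher, where 4.38% of all genes were apart and higher and 10.5% apart in either direction. Ndufa4 had a log2 fold change of 0.74 (SE 0.304), with overlapping values. In capillary-like cells Cox7a1 was at 4.98, 7.67 and 5.87 against 3.84, 3.70 and 4.21 CPM (-0.62, SE 0.264, adjusted p = 0.989, edgeR), without overlap.

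Microglia-like cells held the 1 member called between the genotypes, of 95 tested, where 0.16% of 11258 genes were called, and 6 members had an unadjusted p under 0.05, where 10.3% of all genes had. DESeq2 called 2 members, Cox6a2 and Ndufa1, where it called 1.67% of all genes. Cox6a2, the form of the complex IV subunit VIa known from heart and skeletal muscle, was at 4.81, 9.71 and 7.93 CPM in the WT mice and 78.5, 29.6 and 53.1 CPM in the ArcSwe mice. All 3 ArcSwe mice lay above all 3 WT mice, on 25, 42 and 16 UMIs against 236, 16 and 173 UMIs, and the log2 fold change was 3.04 (SE 0.407, adjusted p = 0.0356, edgeR). Its share of Cox6a2 and Cox6a1 UMIs was 5.87%, 11.9% and 9.94% against 43.5%, 35.6% and 30.6%. The call was lost without any 1 of WT replicate 1 (adjusted p = 0.131), WT replicate 2 (0.0843), ArcSwe replicate 1 (0.158) and ArcSwe replicate 3 (0.274), with cells of at least 1000 genes (0.0541) and at clustering resolution 2 (0.0594). The log2 fold change was 2.64 to 3.35 leaving out 1 mouse. Cox6a2 lies at chr7:128205435-128206387 (GRCm38, minus strand) inside the span of Itgad on the other strand, and whether the counting used strand is not given in the sources used here. Itgad was at 6.35, 8.79 and 2.48 CPM in the WT mice and 8.98, 1.85 and 4.61 CPM in the ArcSwe mice, which overlap.

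Ndufa1, a small accessory subunit of complex I encoded on the X chromosome, was at 55.2, 60.4 and 45.6 CPM against 140, 86.9 and 107 CPM, without overlap (log2 fold change 1.18, SE 0.26, adjusted p = 0.131, edgeR). Cox4i2 was at 0.385, 1.85 and 1.49 against 4.32, 3.70 and 6.14 CPM on 48 UMIs in all (2.18, SE 0.58, adjusted p = 0.216, edgeR). Pericyte markers summed to 16.2 to 38.7 CPM in the WT and 17.97 to 76.8 CPM in the ArcSwe microglia-like cells. Members apart and lower were Ndufaf4 and Ndufaf7, both assembly factors, and 3 complex I subunits, Ndufs1, Ndufs4 and Ndufv2. With library sizes alone, which moved the median of all genes from -0.05 to -0.18, the nuclear members' median moved from 0.07 to -0.05 and 1 member was called as before. The mt- median was 0.65 in place of 0.83, above 0 for 13 of 13 genes in both. The share of all genes called with that scaling is not given here. In all 4 members were apart and higher and 5 apart and lower, of 95, where 20.3% of all genes were apart and 5.47% apart and higher.

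The microglial counts moved with the low-ribosomal clusters. Without those clusters, 34 of 93 members were called, all higher in the ArcSwe mice, where 6.25% of 9662 genes were called and 5.55% called higher. They were 28 nuclear members, 9 of 13 complex IV subunits tested among them, and 6 mt- genes. Cox6a2 was then at 5.12, 11.1 and 33.5 against 115, 118 and 113 CPM (log2 fold change 3.72, SE 0.403, adjusted p = 0.000928, edgeR) and Ndufa1 at 58.4, 65.7 and 97.7 against 200, 372 and 205 CPM (1.97, SE 0.263, adjusted p = 0.00166, edgeR). The cells left were 724, 577 and 66 in the WT mice and 288, 10 and 190 in the ArcSwe mice.

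In these remaining cells the nuclear share was 0.771%, 0.762% and 0.912% against 1.09%, 1.41% and 1.18%, every ArcSwe mouse above every WT mouse (exact permutation, two-sided, p = 0.1). The share of ribosomal protein UMIs was likewise apart, 5.13%, 5.18% and 7.17% against 10.997%, 12.6% and 12.5%, and its part in the rise of the members was not tested. The mt- share was 0.604%, 0.652% and 1.60% against 1.38%, 2.37% and 2.87% (exact permutation, p = 0.2) and overlapped. Without WT replicate 3 and with all clusters, 15 members were called, where 8.98% of 11566 genes were: Cox6a2 (3.07, SE 0.389), Ndufa1 (1.02, SE 0.218), Cox4i2 (2.25, SE 0.613), 11 mt- genes led by mt-Co3 (2.41, SE 0.417), and Ndufaf4, which was lower (-1.01, SE 0.273).

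Whether the genotype effect differs between microglia- and endothelial-like cells was tested as an interaction. In 0 of 99 members did it pass (0% of 15109 genes), with 5 members at an unadjusted p under 0.05, where 8.61% of all genes were. The interaction was 1.14 for Ndufa1 (SE 0.268, adjusted p = 0.388, edgeR) and -0.35 for Cox6a2 (SE 0.925, adjusted p = 0.928, edgeR), which had 0 to 0.118 CPM in endothelial-like cells of the WT mice and up to 1.19 CPM in those of ArcSwe replicate 3. Without the low-ribosomal clusters 11 members passed, where 2% of 14565 genes did, among them Ndufa1 (1.98, SE 0.271, adjusted p = 0.0033, edgeR), mt-Atp6 (1.2, SE 0.267) and mt-Co1 (1.21, SE 0.271).

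The make-up of the mt- UMIs differed between mice of 1 genotype. mt-Nd4l made up 3.47%, 3.61% and 1.35% of mt- UMIs in capillary-like cells of the WT mice and 3.01%, 1.93% and 0.90% in those of the ArcSwe mice. mt-Co3, a core subunit of complex IV, made up 10.5%, 10.2%, 15.2%, 11.9%, 13.1% and 15.6% in the same order. ArcSwe replicate 3 and WT replicate 3 were lowest in mt-Nd4l and highest in mt-Co3, and WT replicates 1 and 2 the reverse. For mt-Nd4l the order of the 6 mice was the same in 7 of 8 classes, and in smooth muscle-like cells the lowest pair changed places.

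mt-Atp8, a small subunit of complex V, followed mt-Nd4l, at 1.62%, 1.62% and 0.774% against 1.41%, 0.966% and 0.446% in capillary-like cells, and mt-Nd4, which shares the transcript shown above with mt-Nd4l, at 7.85%, 7.74% and 5.16% against 5.81%, 5.80% and 4.69%. mt-Cytb did not follow, at 10.8% to 11.8% over all 6 mice. In microglia-like cells mt-Nd4l was at 4.81%, 5.09%, 1.75%, 3.93%, 2.48% and 0.97% and mt-Co3 at 10.5%, 10.9%, 17.7%, 12.97%, 14.7% and 17.9%. The order of the mice was that of the capillary-like cells for mt-Nd4l, while for mt-Co3 the lowest pair, WT replicates 1 and 2, changed places. The libraries with the lowest mt-Nd4l share are the pair in which the mt- limit removed 292 and 263 cells, and the part of RNA quality or library preparation in this order was not tested.

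**Figure D5:**
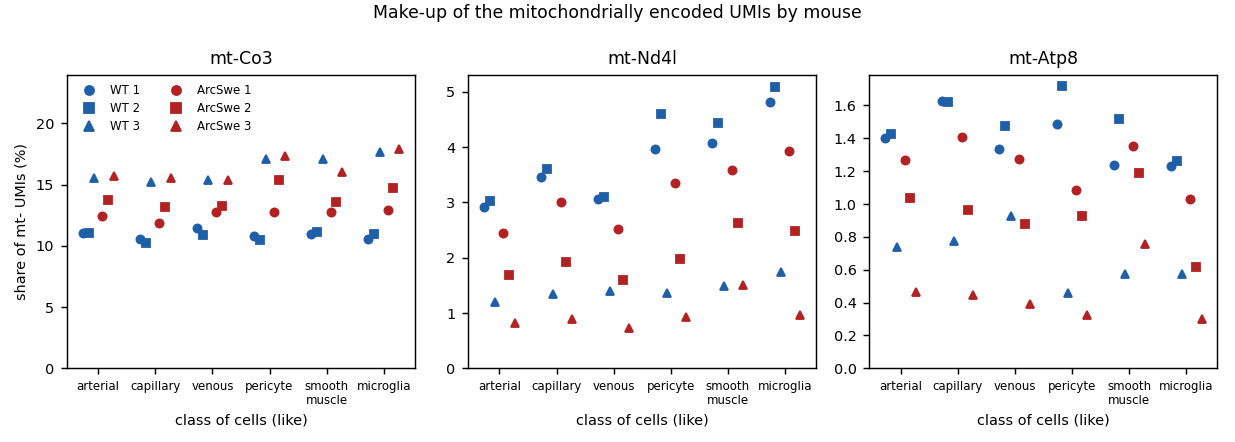
Share of all mt- UMIs (%, vertical axes from 0) taken by mt-Co3, mt-Nd4l and mt-Atp8 in each class of cells, with 1 point per mouse. In every class mt-Nd4l is lowest and mt-Co3 highest in WT replicate 3 and ArcSwe replicate 3, with mt-Co3 at 15.2% and 15.6% there in capillary-like cells.

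Between classes the make-up also differed. mt-Cytb made up 14.6% to 16.3% of mt- UMIs in smooth muscle-like and 13.6% to 14.8% in pericyte-like cells, above the 10.1% to 11.3% of arterial-like cells in every mouse. mt-Nd2 made up 5.68% to 7.25% in capillary-like and 3.86% to 5.65% in smooth muscle-like cells, without overlap. mt-Nd5 was at 2.24% to 3.39% in 5 of the smooth muscle-like samples and at 1.14% in WT replicate 3, against 1.13% to 1.74% in capillary-like cells.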

How the data were processed

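Single-cell RNA libraries of 6 mice were analysed. The authors deposited 1 matrix of UMI counts per mouse, raw and not normalized, made with Cell Ranger 7.0.0 on the mm10 genome per the submitters' processing notes. The members, gene lists, tests and alternatives were chosen with earlier results of these data known, and the rule for naming genes was written with them.

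Cells with 500 to 4500 genes and under 10% mt- counts were kept. They were log-normalized and clustered with leidenalg 0.10.2 (2000 variable genes without the 101 members, 30 components, 20 neighbours, resolution 1) in Python 3.11.15. Classes were named "-like" from fixed markers. No doublet caller was run. Clusters with markers of several types stayed unnamed, as did clusters that met no naming rule (3408 cells in all). A further 5384 endothelial cells with a Cx3cr1 or Aif1 UMI were left out. Shared barcodes were counted and kept. Cells are not replicates, so raw counts were summed per mouse and class. The labels number 3 replicates per genotype, taken as separate mice because the paper lists its samples as mice. P-values between genotypes set a difference against the spread between mice, and those between classes against the spread of the difference within mice. In edgeR the spread of each gene is drawn toward a spread pooled over all genes. A small p-value therefore does not show that every mouse had the same sign.

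Sums were tested with edgeR 4.0.16 in R 4.3.3 (filterByExpr, TMM, quasi-likelihood F test, Benjamini-Hochberg adjustment over all genes tested), genotypes without a block and classes with the mouse as a block. Every member passed through the same filter, which left 87 to 97 of 101 in the fits between genotypes. Members called by edgeR at an adjusted p under 0.05 are said to rise or fall. Shares were compared by exact two-sided permutation tests (scipy 1.17.1). CPM are counts per 1e+06 UMIs of the class in that mouse. The fits were tested on simulated counts, with 200 genes changed in each. In the genotype fits a log2 change of 1 was recovered for 58.5% of them in endothelial-, 72% in mural- and 0.5% in microglia-like cells. A change of 2 was recovered for 89.5%, 93% and 87.5% in the same order, and for 65% in the interaction. A count of 0 members called therefore does not show that changes of 1 or less are absent. Coordinates are from GENCODE M21 (GRCm38) and promoters from RefSeq (GRCm38.p6).

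Named members were those with an adjusted p under 0.05 between genotypes, the 3 smallest p-values of each genotype fit, paralogues of complex IV, mt- genes and the 5 largest called changes of each class comparison with 1 sign in every mouse. Members named because the genotypes did not overlap, and Ndufaf7 in smooth muscle-like cells, were chosen after their values were seen. Alternatives were DESeq2 1.42.0, RLE size factors, no filter on low counts, other mt- and gene limits, resolution 2, members among the variable genes, WT mice only, the replicate number as a block, each mouse left out, removal of low-ribosomal clusters and, chosen after seeing the data, library sizes alone and the interaction without low-ribosomal clusters.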

Additional observations from a re-analysis of the deposited data

How the results depend on the processing

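Of 218 recomputed counts of members called, 200 stayed within 1.5 times the reported count. Counts of 0 that stayed at 0 are among the 200, so that number does not measure the stability of the calls made. The others follow. In microglia-like cells 1 member was called between genotypes as reported, against 2 by DESeq2, 2 with no filter on low counts, 0 with cells of at least 1000 genes, 0 at resolution 2, 34 without low-ribosomal clusters and 0 to 15 leaving out 1 mouse. The count in smooth muscle-like cells was 1 with no filter and 0 to 8 leaving out 1 mouse, and in pericyte-like cells 0 to 1 leaving out 1 mouse, against 0. With WT mice only, 31 members were called between venous- and capillary-like cells (47 reported) and 28 between pericyte- and capillary-like cells (54 reported), and library sizes alone gave 29 for the venous comparison. The interaction gave 1 member by DESeq2 and 11 without low-ribosomal clusters, against 0. The WT results rest on fewer mice, and the cause of each of these moves was not tested. Where no share of all genes called is given for a setting, as with WT mice only, the move cannot be set against that of all genes.

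The direction of the nuclear share difference was not stable. It was -0.0017 percentage points in venous-like cells under 5% mt- counts and -0.0116 under 20%, -0.00265 in pericyte- and -0.039 in mural-like cells under 5%, and -0.143 in microglia-like cells as the mean over single cells. Leaving out 1 mouse gave -0.0093 to 0.0537 in arterial-, -0.0214 to 0.0574 in capillary-, -0.0263 to 0.0586 in venous-, -0.0156 to 0.0539 in endothelial-, -0.0673 to 0.0866 in mural- and -0.0533 to 0.127 in microglia-like cells. The mt- share difference kept its sign under each alternative. No named log2 fold change changed sign.

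The labels give both genotypes replicate numbers. Same-numbered mice had correlated deviations over 0.1 in all 3 pairs in endothelial- and smooth muscle-like cells but not in the other 6 classes. In endothelial-like cells WT replicates 1 and 2 each correlated best with an ArcSwe mouse of another number. Only in smooth muscle-like cells did each WT mouse correlate best with its own number, at 0.104, 0.114 and 0.238. WT replicate 3 correlated best with ArcSwe replicate 3 in every class but microglia-like cells, from 0.139 in pericyte-like to 0.367 in endothelial-like cells. These correlations do not show that the numbers pair the mice. With the replicate number as a block, 0 members were called in 7 classes and 1 in microglia-like cells, as without it. Depth limits the pericyte-like sums, at 29 to 223 cells per mouse, and the microglia-like sums without low-ribosomal clusters, at 10 cells in ArcSwe replicate 2.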
